A study of Mus musculus with 12 samples.

Results

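The transcripts of 9 enzymes and enzyme subunits of the tricarboxylic acid (TCA) cycle were followed in rod photoreceptors and in whole mouse retina. They were Cs, Idh3a, Idh3b, Idh3g, Ogdh, Sucla2, Suclg1, Sdha and Fh1. Control mice were compared with mice in which pyruvate kinase M2 was targeted in rods. Members were taken by gene symbol, and each of the 9 matched 1 row of a table of 56748 genes. RNA was sequenced from total retinal lysate (retina) and from ribosomes pulled down from rods of the same kind of lysate (rods), with 3 libraries in each of 4 groups. All mice carried RiboTag, an allele that puts an epitope tag on ribosomal protein Rpl22 in cells with Cre, and i75-Rod-Cre, which a rhodopsin promoter drives in rods. Control mice had 1 floxed Pkm2 allele (RiboTag;Pkm2fl/+;i75-Rod-Cre), so they were not wild type, and the knockout, called Rodko here, had 2 (RiboTag;Pkm2fl/fl;i75-Rod-Cre). The deposited design gives an age of 2 weeks, whereas the methods of the study give 2 months for this assay. No source used here says whether animals were pooled or whether each library came from its own animal, so p-values measure the spread between libraries.

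The TCA cycle runs in the mitochondrial matrix, oxidises the acetyl group that pyruvate dehydrogenase makes from pyruvate, and passes electrons to the respiratory chain. Pyruvate kinase catalyses the last step of glycolysis, which makes that pyruvate. Rods pack their mitochondria into the inner segment and send much of their glucose to lactate, so how their glycolytic and mitochondrial enzymes are set is of long-standing interest in retinal metabolism. In the order of the cycle, citrate synthase (Cs) joins acetyl-CoA to oxaloacetate. The NAD-dependent isocitrate dehydrogenase has a catalytic subunit (Idh3a) and the subunits Idh3b and Idh3g. Ogdh is the first enzyme of the 2-oxoglutarate dehydrogenase complex. Succinyl-CoA ligase pairs the shared alpha subunit Suclg1 with either the ADP-forming beta subunit Sucla2 or the GDP-forming beta subunit Suclg2. Sdha is the flavoprotein of succinate dehydrogenase, and fumarase (Fh1) follows it.

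Sequences just upstream of the start sites were examined for 4 short motifs on both strands. All 9 genes were higher in rods than in retina on a common scale, by unequal amounts, a direction that many other genes share. RefSeq promoter windows (GRCm38.p6, 250 bases before to 50 after a start) were found for 8 of the 9 genes; Idh3a had no entry. The motif TAATCC, the core bound by photoreceptor homeodomain factors such as Crx, stood in a window of 2 of the 8 genes (3 of their 13 windows), against 8.14% of all 27025 genes (7.06% of all 32851 windows). CCGGAAG, an Ets-type motif, stood in a window of 2 of 8 genes (2 of 13 windows), against 9.93% of genes (8.86% of windows). GCGCATGC, the motif of Nrf1, was found for 1 of 8 genes, in 2 windows of Ogdh, against 3.05% of genes (2.71% of windows), and TCAAGGTCA, the motif of Esrra, for 0 of 8, against 0.466% of genes (0.423% of windows). The motifs share no overlapping letters in these windows. The 2 Ogdh windows with TAATCC and GCGCATGC overlap and hold the same site of each, so the window counts include each Ogdh site more than once. No transcript of a GENCODE annotation held the bases just after the start in the Cs window or in these 2 Ogdh windows. All TAATCC and GCGCATGC matches of members lay in those windows. Windows of the 4 genes with a motif are printed from 250 bases before to 10 bases after the start, 5′ to 3′ on the gene's strand, with the motif (or its reverse complement) in capitals; Ogdh had 6 annotated starts, and the first window with a motif is shown. Cs lies at chr10:128337477-128337736 (plus strand), Idh3b at chr2:130284442-130284701 (minus strand), Idh3g at chrX:73786888-73787147 (minus strand) and the Ogdh window at chr11:6292308-6292567 (plus strand).
Cs: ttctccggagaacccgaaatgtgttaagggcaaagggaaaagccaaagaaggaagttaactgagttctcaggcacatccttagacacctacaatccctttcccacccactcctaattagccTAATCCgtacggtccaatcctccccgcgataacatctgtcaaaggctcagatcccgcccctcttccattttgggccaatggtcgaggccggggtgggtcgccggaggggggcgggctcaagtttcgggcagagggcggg
Idh3b: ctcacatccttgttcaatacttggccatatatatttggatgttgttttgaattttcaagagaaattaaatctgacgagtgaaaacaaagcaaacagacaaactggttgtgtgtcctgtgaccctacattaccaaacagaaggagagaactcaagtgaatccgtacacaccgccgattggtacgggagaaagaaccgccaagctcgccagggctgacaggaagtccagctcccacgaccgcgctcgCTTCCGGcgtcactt
Idh3g: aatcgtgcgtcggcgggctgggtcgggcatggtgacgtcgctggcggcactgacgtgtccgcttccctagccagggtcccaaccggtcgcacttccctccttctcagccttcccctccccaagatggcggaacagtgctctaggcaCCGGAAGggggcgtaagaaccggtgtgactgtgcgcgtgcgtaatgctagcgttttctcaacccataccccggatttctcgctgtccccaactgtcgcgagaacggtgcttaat
Ogdh: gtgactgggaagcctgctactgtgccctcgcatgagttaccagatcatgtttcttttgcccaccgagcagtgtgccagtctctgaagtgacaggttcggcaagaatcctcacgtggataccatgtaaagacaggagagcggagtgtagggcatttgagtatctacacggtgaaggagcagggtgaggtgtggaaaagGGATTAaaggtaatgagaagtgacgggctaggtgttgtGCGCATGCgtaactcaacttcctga
The member windows were rich in CG dinucleotides, with a median of 24 in the 13 member windows against 7 over all windows. These matches describe the letters in the windows and were not tested as binding sites.

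The libraries held 13458890 to 22790074 reads. Pkm, the gene that encodes both pyruvate kinase M1 and M2, was lower in Rodko than in control rods (log2 difference -1.20, adjusted p = 5.36e-05, limma) and in Rodko than in control retina (-0.65, adjusted p = 0.0219), with no overlap between the genotypes. The retina call of Pkm was lost with a replicate block, with at least 10 reads required in every library, and without any one of control retina replicates 1 and 3 and the 3 Rodko retina replicates. All 15 rod markers were higher in the rod than in the retina libraries of control mice (log2 1.21 to 2.11), whereas the lists for other cells had negative medians, from -0.72 for cone to -3.34 for horizontal cell markers. Transcripts of other cells remained in the rod libraries. The summed Müller glia markers, which include Glul and Rlbp1, stood at 8648 to 11190 scaled reads in control rods. They stood at 7359 to 8857 in Rodko rods, against 60449 to 74242 over the 6 retina libraries. Cone and bipolar markers remained more. In control mice, summed cone markers stood at 9630 to 11665 in rods against 16390 to 17391 in retina. Bipolar markers there stood at 6068 to 7467 in rods against 20266 to 21544 in retina.

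All 9 TCA cycle transcripts were more abundant in rods than in retina, in control and in Rodko mice, when the fractions were put on a common scale by TMM, the trimmed mean of M-values. The same held with RLE (median-of-ratios) scaling, but scaling by total reads left 4 of 9 higher in control mice and 6 higher and 1 lower in Rodko mice. Sdha stood farthest above its level in retina, with 1.98-fold more scaled reads in control rods and 2.12-fold more in Rodko rods. Idh3b differed least, at 1.29-fold and 1.26-fold. Over all genes tested, 23.5% were called higher and 35.5% lower in control mice, and 23.9% higher and 35.1% lower in Rodko mice (adjusted p below 0.05, limma on log2 of scaled reads + 1). The median gene stood at -0.37 in control and -0.32 in Rodko mice on this scale, against members' medians of 0.66 and 0.83. That background depends on the filter: over the 12918 genes with at least 10 reads in every library the median gene stood at 0.24 and 0.26, and 62.1% and 62.8% of the called genes were higher, in place of 39.8% and 40.5%. All 9 members stayed above that median too, with the same members' medians. Groups of 3 rod and 3 retina libraries did not overlap for 9 of 9 members, all higher in rods; over all genes this held for 25.2% higher and 36.6% lower in control mice and for 26.3% higher and 36.7% lower in Rodko mice. The rod libraries held polyA RNA bound to ribosomes, and the retina libraries polyA RNA of the whole lysate. In bulk libraries of these 2 kinds, a larger share of rods, more RNA per rod and more of it on ribosomes cannot be told apart.

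Citrate synthase, the entry enzyme, had 4612, 4746 and 4531 scaled reads in control rods and 4723, 4386 and 4909 in Rodko rods, against 2723, 2866 and 2542 in control retina and 2730.2, 2569 and 2527 in Rodko retina. Every rod library lay above every retina library, and the log2 difference was 0.77 ± 0.071 (SE) in control mice (adjusted p = 1.44e-07) and 0.84 in Rodko mice. The counting could share Cs reads with its near copy Csl, which covers 2.01% of the 50-base windows of Cs transcripts.

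The subunits of the NAD-dependent isocitrate dehydrogenase were raised in rods by unequal amounts. Idh3g had 1691, 1696 and 1725 scaled reads in control rods and 1608, 1699 and 1692 in Rodko rods, against 1037, 1024 and 941 in control retina and 971, 960.5 and 988 in Rodko retina. The catalytic subunit Idh3a had 2739, 2724 and 2954 scaled reads in control rods and 2783, 2620.1 and 2799 in Rodko rods, against 1909, 1982 and 1827 in control retina and 1804, 1828 and 1803 in Rodko retina. Idh3b had 2381, 2128 and 2552 scaled reads in control rods and 2507, 2234 and 2023 in Rodko rods, against 1925, 1690.4 and 1855 in control retina and 1788, 1829.7 and 1730.2 in Rodko retina. The rod and retina libraries were apart for each subunit, but for Idh3b the lowest rod and the highest retina library lay close together. The log2 differences in control mice were 0.77 ± 0.069 for Idh3g, 0.56 ± 0.067 for Idh3a and 0.37 ± 0.091 for Idh3b (adjusted p = 1.22e-07, 3.07e-06 and 0.00262). In Rodko mice they were 0.78, 0.59 and 0.33. Part of Idh3b overlaps Nop56, a nucleolar protein gene on the opposite strand with 8753 reads against 23922 for Idh3b over the 12 libraries, and since no source gives the strand setting of the counting, their reads may mix.

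Ogdh, the first enzyme of the 2-oxoglutarate dehydrogenase complex, had 5108, 5109 and 5349 scaled reads in control rods and 5050.0, 5026 and 6285 in Rodko rods, against 3637, 3968 and 3823 in control retina and 3656, 3938 and 3907 in Rodko retina. The third Rodko rod library was the highest, and without it the Rodko log2 difference was 0.40. With all libraries it was 0.45 ± 0.084 in control mice (adjusted p = 0.000276) and 0.50 in Rodko mice, so Ogdh and Idh3b were the members nearest to their retina level in both genotypes.

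Both succinyl-CoA ligase members were higher in rods. Sucla2, the ADP-forming beta subunit, had 2071, 2146 and 2167 scaled reads in control rods and 2237, 2161 and 2321 in Rodko rods, against 1436, 1344 and 1267 in control retina and 1269, 1173 and 1347 in Rodko retina. Suclg1, the shared alpha subunit, had 1487, 1609 and 1566 scaled reads in control rods and 1697, 1719.5 and 1489.9 in Rodko rods, against 845, 896 and 895 in control retina and 908, 773 and 884 in Rodko retina. No rod library reached down to a retina library for either gene. The log2 differences in control and Rodko mice were 0.66 ± 0.076 and 0.83 for Sucla2, and 0.82 ± 0.085 and 0.94 for Suclg1 (adjusted p in control mice 1.83e-06 and 5.57e-07).

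Sdha, which oxidises succinate and feeds electrons to the respiratory chain, had 10280.5, 9903 and 9746 scaled reads in control rods and 10502, 10124 and 10682 in Rodko rods, against 5213, 5181 and 4689.6 in control retina and 4966, 4799 and 5014 in Rodko retina. The lowest rod library, at 9746, lay far above the highest retina library, at 5213. Its log2 difference was 0.99 ± 0.066 in control mice (adjusted p = 3.96e-09) and 1.08 in Rodko mice. Fumarase had 1115, 1133 and 1138 scaled reads in control rods and 1114, 1159.9 and 1144 in Rodko rods, against 719, 735 and 728 in control retina and 613, 624 and 674 in Rodko retina. The rod libraries of Fh1 were close together in both genotypes, and the log2 difference was 0.63 ± 0.073 in control and 0.84 in Rodko mice (adjusted p = 1.79e-06 and 6.34e-08).

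**Figure D1:**
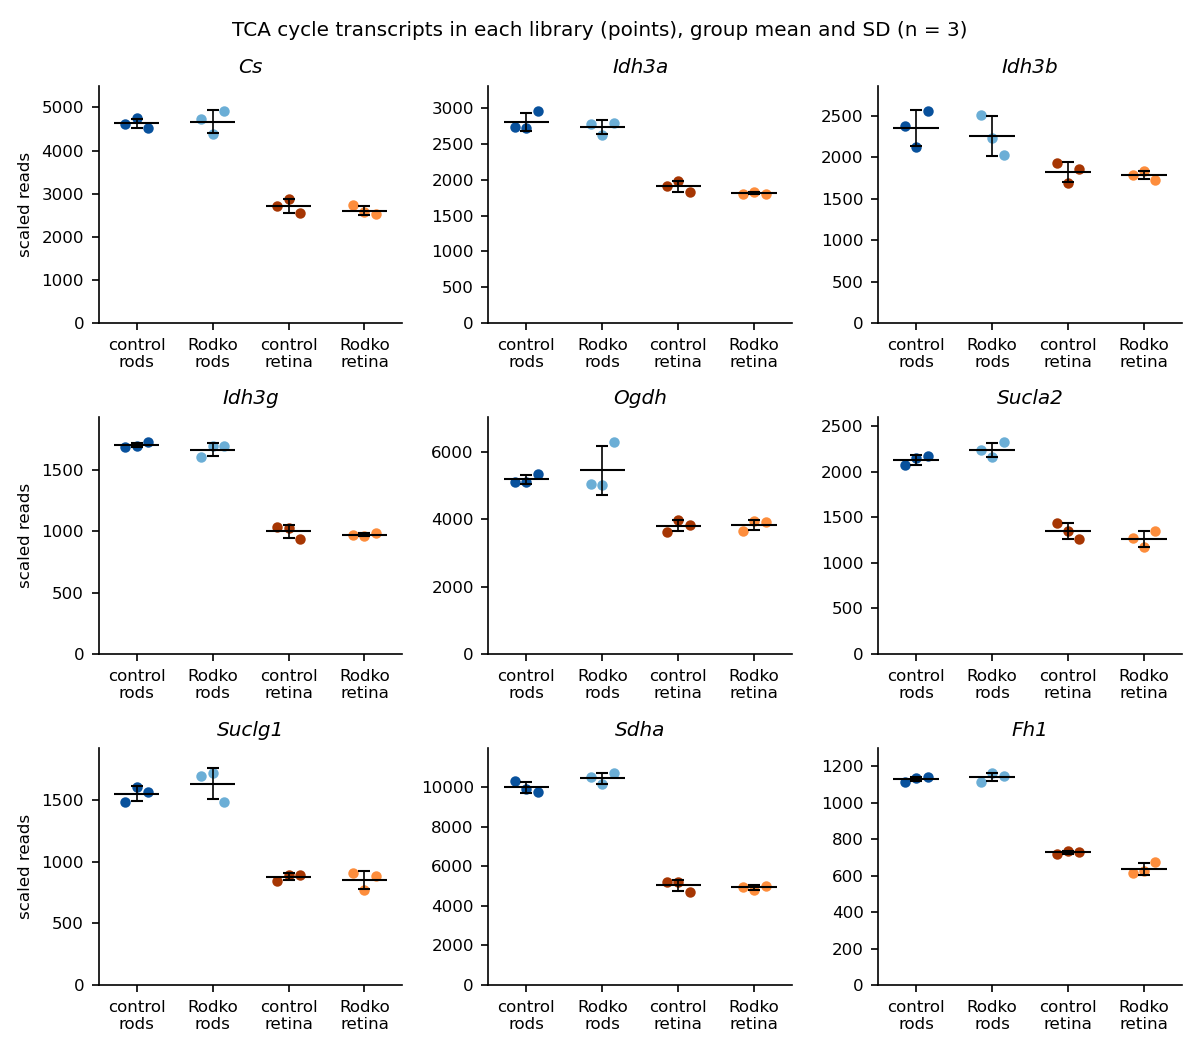
Scaled reads (y axis, from 0) of each of the 9 TCA cycle transcripts in control rods, Rodko rods, control retina and Rodko retina; points are libraries, lines the mean and bars the SD of 3. Rod points lie above retina points in all 9 panels, whereas control and Rodko points of a fraction lie at about the same height.

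The order of the differences was nearly the same in both genotypes and did not depend on the scaling, which shifts all genes of a library together. Sdha, Suclg1 and Cs led in both, and Idh3a, Ogdh and Idh3b closed the order in both. Scaled by total reads, the median of all genes fell to -0.77 in control and -0.74 in Rodko mice, and the calls moved from 6001 higher and 9083 lower to 2192 and 12708 in control mice. On that scale Idh3b was at -0.18 and Ogdh at -0.10 in control mice, neither called (adjusted p = 0.0879 and 0.294, limma), and Idh3b was called lower in Rodko mice at -0.25 (adjusted p = 0.0243). Sdha kept positive calls on every scale tried. Because a scale shifts the median of all genes as well, the members' place against it could hardly change. All 9 members stood above it on each scale: Idh3b, the lowest, was at percentile 67.0 or higher and Sdha between 91.1 and 94.2. The 9 transcripts together made up 0.143% to 0.147% of reads in control rods and 0.141% to 0.149% in Rodko rods, against 0.126% to 0.131% in control retina and 0.124% to 0.128% in Rodko retina, a difference of the same direction with no overlap. This sum leans on Sdha, which held 6279 of the 19230 member reads in control rods replicate 1. In control retina replicate 1 it held 6271 of 23390. The sum therefore does not show that the other members rose as a share of reads.

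**Figure D2:**
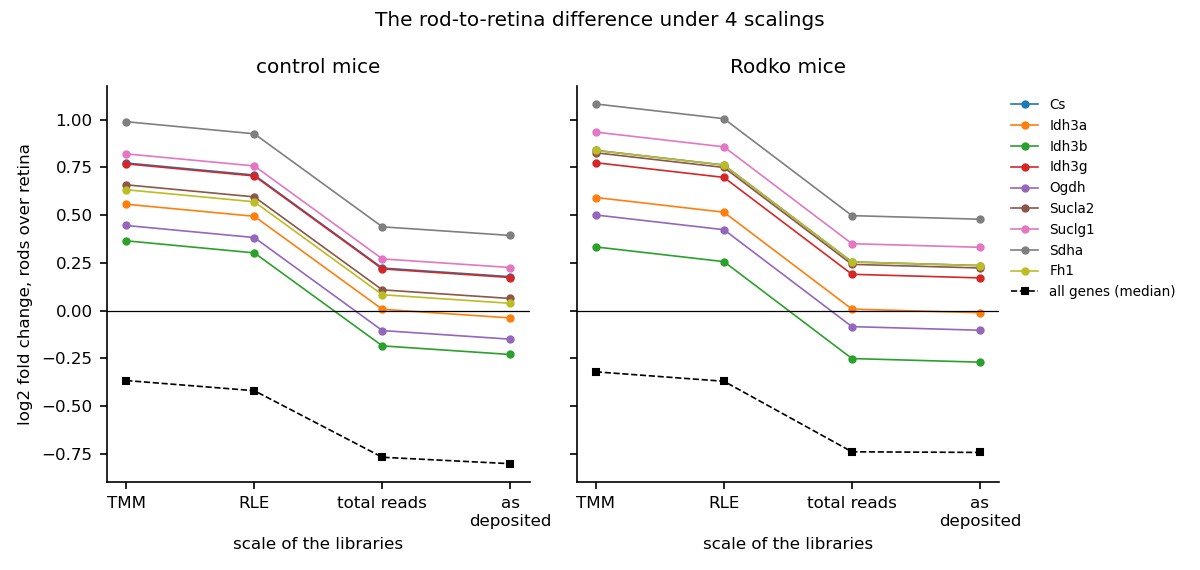
Log2 difference of rods over retina (y axis) for the 9 transcripts and for the median of all genes (black squares) under 4 scales of the libraries (x axis), in control mice (left) and Rodko mice (right). All lines fall together from TMM to the deposited values. Idh3b and Ogdh pass below 0 by total reads and Idh3a as well on the deposited values. All 9 stay above the median gene, which shifts with them.

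Ratios of 2 genes within a library do not depend on the scaling, and 8 of them were compared between the 6 rod and the 6 retina libraries by two-sided exact permutation tests, whose smallest possible p is 0.00216. The largest shift was in the choice of beta subunit of succinyl-CoA ligase. Suclg2, the GDP-forming one, had 9 to 17 reads in the rod libraries and 104 to 339 in the retina libraries, while Sucla2 had 1265 to 2307 over all 12. The Sucla2 to Suclg2 ratio was thus 17.5-fold higher in rods, a log2 difference of 4.13, with no overlap between the fractions (exact permutation p = 0.00216, adjusted p = 0.00346). The Idh3a to Idh2 ratio, which sets the NAD-dependent enzyme against its mitochondrial NADP-dependent counterpart, was 4.48-fold higher in rods (log2 2.16, same p). Idh2 had 42 to 111 reads in the rod libraries and 241 to 460 in retina. Part of the counts of both low genes in rods may come from other cells, whose markers remained in the rod libraries; that part was not tested.

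Within complexes the shifts were smaller. The Sdha to Sdhb ratio, between the flavoprotein and the iron-sulphur subunit of succinate dehydrogenase, was 1.55-fold higher in rods (log2 difference 0.63), and Idh3g rose against Idh3a by 0.20. Fh1 fell against Sdha, with a log2 difference of -0.30. These 3 ratios did not overlap between the fractions either, with the same p. The Idh3b to Idh3a ratio was lower in rods by a log2 difference of -0.23 (exact permutation p = 0.00866, adjusted p = 0.0115) with overlapping libraries, and so was Ogdh to Ogdhl, its paralogue, at -0.22 (exact permutation p = 0.0173, adjusted p = 0.0198). Sucla2 to Suclg1 differed by -0.14 (exact permutation p = 0.0476). With the 6 same-numbered pairs the calls of Ogdh to Ogdhl and of Sucla2 to Suclg1 were both lost (exact sign-flip permutation p = 0.0625 for each). With only 6 pairs, the smallest possible p of the sign-flip test is above the 0.00216 of the unpaired test. The Sucla2 to Suclg1 call was also lost without any one of 9 of the 12 libraries, every library but Rodko rod replicate 3, control retina replicate 3 and Rodko retina replicate 1. Without one of those 9 the adjusted p was 0.0606 to 0.0931. Between genotypes within a fraction, the exact permutation test of 3 libraries against 3 cannot go below p = 0.1, so no ratio could be called. Of the 8 ratios in each fraction, only Fh1 to Sdha in retina reached that floor, at a log2 difference of -0.17 (exact permutation p = 0.1). All Rodko retina libraries lay below all control ones for that ratio, which is what reaching the floor means. By chance alone, each such comparison reaches it with a probability of 0.1, so 1 case among these ratios was not read as an effect.

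**Figure D3:**
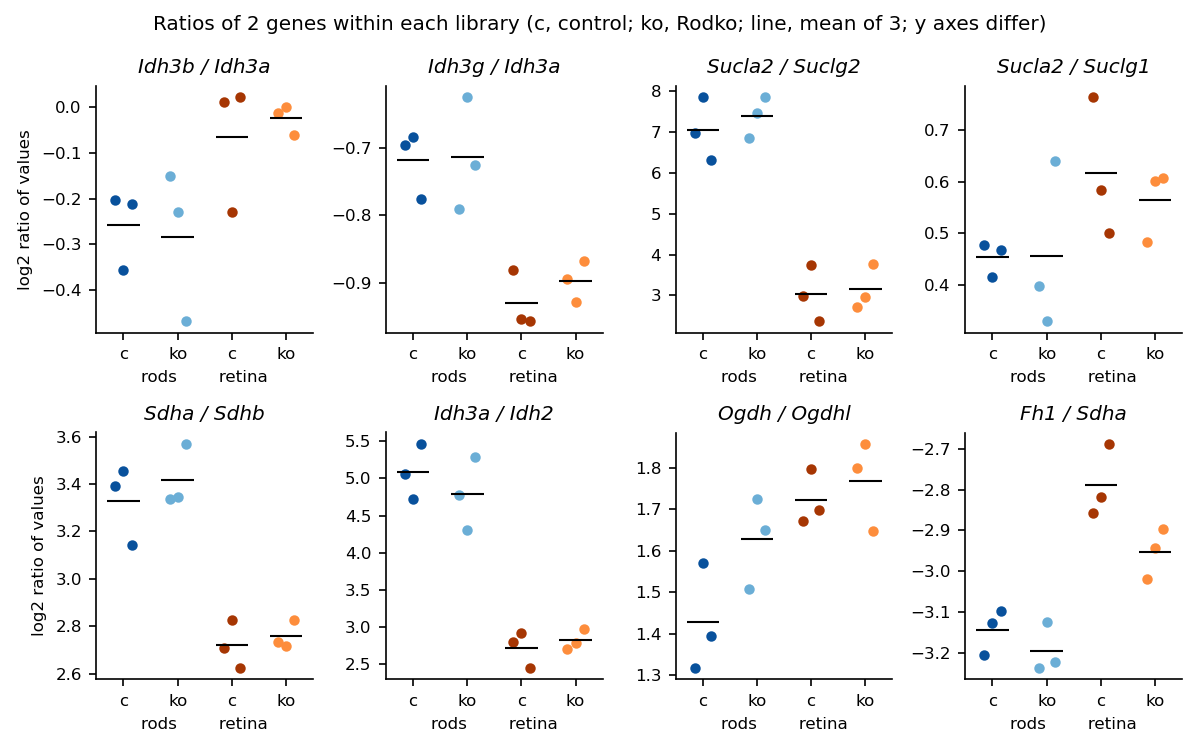
Log2 ratio of the values of 2 genes within each library (y axis, own range in each panel) for 8 pairs; points are libraries of control (c) and Rodko (ko) rods and retina, lines group means of 3. Sucla2 to Suclg2 lies at 6.33 to 7.85 in rods and 2.37 to 3.77 in retina, and Fh1 to Sdha lies lower in rods than in retina in every library.

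The genotype comparison asked whether TCA cycle transcripts changed in Rodko mice, in whose rods the study reports reduced, not absent, Pkm2 transcripts. Pkm1 and Pkm2 transcripts were not told apart here. No member was called by limma in rods or in retina (0 of 9 higher and 0 of 9 lower in each), and edgeR and DESeq2 called 0 of 9 as well. In rods 0 of 9 passed an unadjusted p of 0.05 by any of the 3 tools. In retina 1 of 9, Fh1, passed it with edgeR's quasi-likelihood test (adjusted p = 0.937) but not with the main limma test or DESeq2. In alternative limma runs 1 of 9 passed it too, and none was called. These were scaling by total reads, at least 10 reads in every library, 1 fit of all 12 libraries, and leaving out Rodko retina replicate 3. Of all genes, limma called 0% higher and 0.0194% lower in rods, and 0% higher and 0.00391% lower in retina. At an unadjusted p of 0.05, 282 genes were higher and 704 lower in rods, and 542 higher and 527 lower in retina.

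The 95% intervals of limma, for single genes and not adjusted for the number of genes, give the range of each difference. In rods the log2 differences ran from -0.05 for Idh3b to 0.08 for Sucla2, with standard errors of 0.077 to 0.10, and over the 9 members the 95% intervals reached no lower than -0.27 (0.828-fold, Idh3b) and no higher than 0.28 (1.22-fold, Ogdh). In retina they ran from -0.18 for Fh1 to 0.03 for Ogdh, with bounds of -0.36 (0.780-fold, Fh1) and 0.18 (1.13-fold, Ogdh). Positive differences were found for 6 of 9 members in rods and 1 of 9 in retina, with medians of 0.02 and -0.03, against 0.01 and -0.00446 over all genes.

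Sucla2 and Fh1 were the members whose genotypes did not overlap. In rods Sucla2 had 1621.1, 1683.1 and 1679.7 in control and 1742.6, 1705.4 and 1827.4 in Rodko mice, as deposited values. All Rodko libraries were the higher ones, by 5.85%, with an unadjusted p of 0.340 and an adjusted p of 0.932 (limma). In retina Fh1 had 842.5, 870.7 and 861.2 in control and 725.8, 741.6 and 812.9 in Rodko mice. All Rodko libraries were the lower ones, by 11.4%, with an unadjusted p of 0.0558 and an adjusted p of 0.947 (limma). Such separation of 3 libraries from 3 was found for 4.49% of all genes higher and 5.4% lower in rods, and for 4.53% higher and 4.76% lower in retina, so 1 member of 9 in each fraction is near the background. In rods Fh1 had 872.7, 888.6 and 882.4 in control and 867.8, 915.4 and 900.6 in Rodko mice, which overlapped.

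The largest spread within a group was that of Ogdh in Rodko rods, with deposited values of 3934.3, 3966.0 and 4948.3 (coefficient of variation 13.5%) against 3998.2, 4005.9 and 4145.7 in control rods. The third Rodko library stood apart, and without it the log2 difference of Ogdh turned from 0.07 to -0.04, neither called. The same library was the lowest of the Rodko rods for Suclg1, which had 1321.9, 1357.0 and 1173.1 against 1163.6, 1261.4 and 1213.9 in control rods, and for Idh3b, which had 1953.5, 1763.3 and 1592.9 against 1863.3, 1668.5 and 1978.0. Without it the log2 difference of Suclg1 was 0.14 in place of 0.08 (adjusted p = 0.933, limma). The steadiest members in control rods were Idh3g, with 1323.8, 1330.0 and 1337.1, and Fh1, and the coefficient of variation of Fh1 there was 0.909%. Idh3a lies within 10 Mb of Pkm on the same chromosome, and could be linked to the floxed allele, which was not tested; its own differences were -0.03 in rods and -0.06 in retina.

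Markers of other cells also differed between the genotypes in the rod libraries: the median log2 difference was -0.42 over 9 bipolar, -0.41 over 7 amacrine, -0.47 over 7 ganglion and -0.38 over 6 Müller glia markers, none of them called, against 0.05 over the 15 rod markers. The other 5 lists had medians nearer 0 in rods, at -0.11 for cone, -0.11 for horizontal cell, -0.08 for pigment epithelium, -0.07 for microglia and -0.03 for endothelial markers. Single markers ranged from -1.05 to 1.05 for horizontal cells and -0.83 to 0.82 for endothelium. Summed scaled reads in Rodko and control rods were apart for endothelial (134 to 183, 197 to 272) and amacrine markers (1635 to 1900, 1927 to 2734). Those of the other lists overlapped, as for bipolar markers (5396 to 7149, 6068 to 7467). In retina, where the genotypes of Fh1 did not overlap, the medians were 0.48 for pigment epithelium, -0.31 for microglia, -0.21 for bipolar (9 of 9 negative), -0.16 for Müller glia, -0.15 for endothelial and -0.12 for cone markers (8 of 8 negative). Amacrine, ganglion and horizontal cell markers lay between -0.07 and -0.04 there and rod markers at 0.09, again with none called. Their part in the members' values was not tested. The difference of the genotype effects between fractions was largest for Fh1 at 0.21 (unadjusted p = 0.0628, adjusted p = 0.978, limma) and Sucla2 at 0.17, with 8 of 9 members positive and no call. With RLE scaling, total reads, edgeR or DESeq2, 7 of 9 were positive. The lean was not particular to the members. Positive were also 17 of 20 respiratory chain, 12 of 14 mitochondrial structure and import and 7 of 9 lower glycolysis genes. Of the genes of entry into the cycle, 5 of 10 were. Over all genes 0% were called in either direction, with 464 higher and 664 lower at an unadjusted p of 0.05, and DESeq2 called 1. The bounds of the members' intervals were -0.31 and 0.42.

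**Figure D4:**
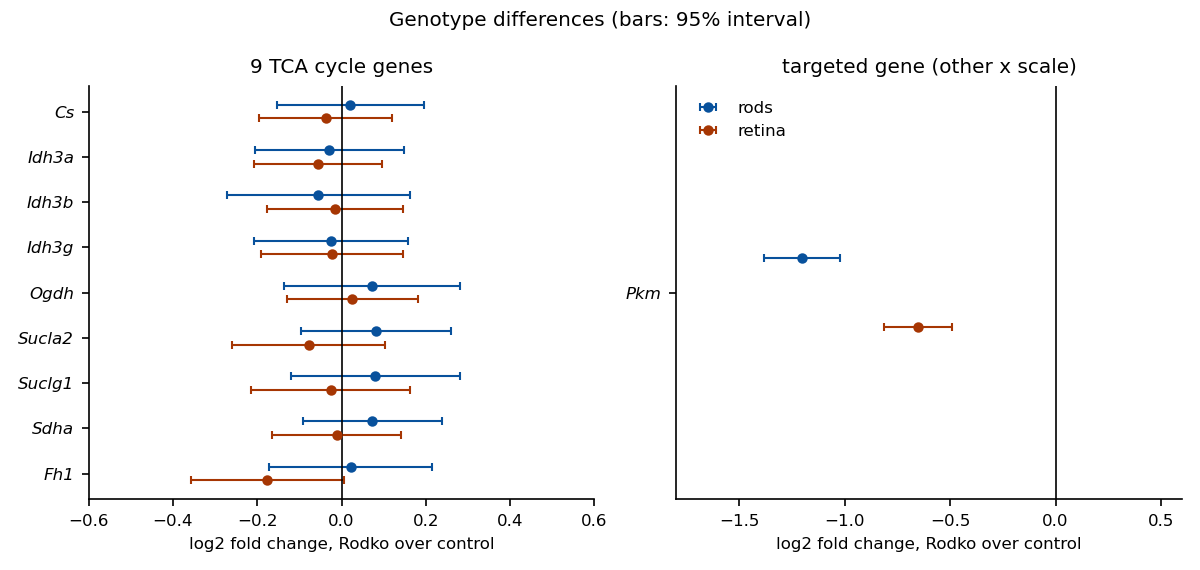
Log2 difference of Rodko over control (x axis) in rods and in retina for the 9 TCA cycle transcripts (left) and for Pkm (right, with its own x scale); bars are 95% intervals from limma. All 18 intervals of the TCA cycle genes include 0, and those of Pkm lie below it.

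Levels of different genes were compared per kilobase of exon. In control rods Sdha was highest at 2418 ± 66.6 (SD, n = 3) scaled reads per kilobase, Ogdh followed at 951 ± 25.4 and Cs at 801 ± 18.7, and each of these stood apart from its neighbour. Idh3b (688 ± 62.4) and Idh3g (631 ± 6.77) overlapped, as did Idh3a (553 ± 25.4) and Sucla2 (534 ± 12.7). Suclg1 (337 ± 13.4) and Fh1 (333 ± 3.62) were lowest and overlapped. In control retina Sdha (1219 ± 71.1) and Ogdh (698 ± 30.4) were again the highest, but Idh3b (533 ± 35.2) came before Cs (469 ± 28.1), with overlapping ranges, and Fh1 (214 ± 2.35) stood above Suclg1 (190.3 ± 6.25), with ranges apart. The Rodko groups had the same first and second place, Sdha and Ogdh, in both fractions. Exon lengths came from a GENCODE annotation of another genome build than the submitters', and a level per kilobase depends on which exons are used.

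The other genes of the cycle moved with the members, with exceptions. Of 9 further cycle genes, 7 were higher in rods than in retina and 2 lower in each genotype, with a median log2 difference of 0.74 in control and 0.65 in Rodko mice, on the TMM scale. Mdh2, mitochondrial malate dehydrogenase, which closes the cycle, was at 1.34 in control mice and 1.32 in Rodko mice. Dld, the shared E3 subunit of the 2-oxo acid dehydrogenases, had 1.99-fold more scaled reads in control rods than in control retina and stood at 1.14 on the log2 scale in Rodko mice. Of the other succinate dehydrogenase subunits, Sdhc was at 0.95 in control mice, close to Sdha at 0.99, Sdhd was at 0.74 and Sdhb at 0.38. Dlst, the E2 subunit of the 2-oxoglutarate dehydrogenase complex, was at 0.63 and Ogdhl at 0.74. The exceptions were Idh2 at -1.79 in control and -1.36 in Rodko mice and Suclg2 at -3.28 and -3.31. None of the 9 was called between genotypes in either fraction.

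**Figure D5:**
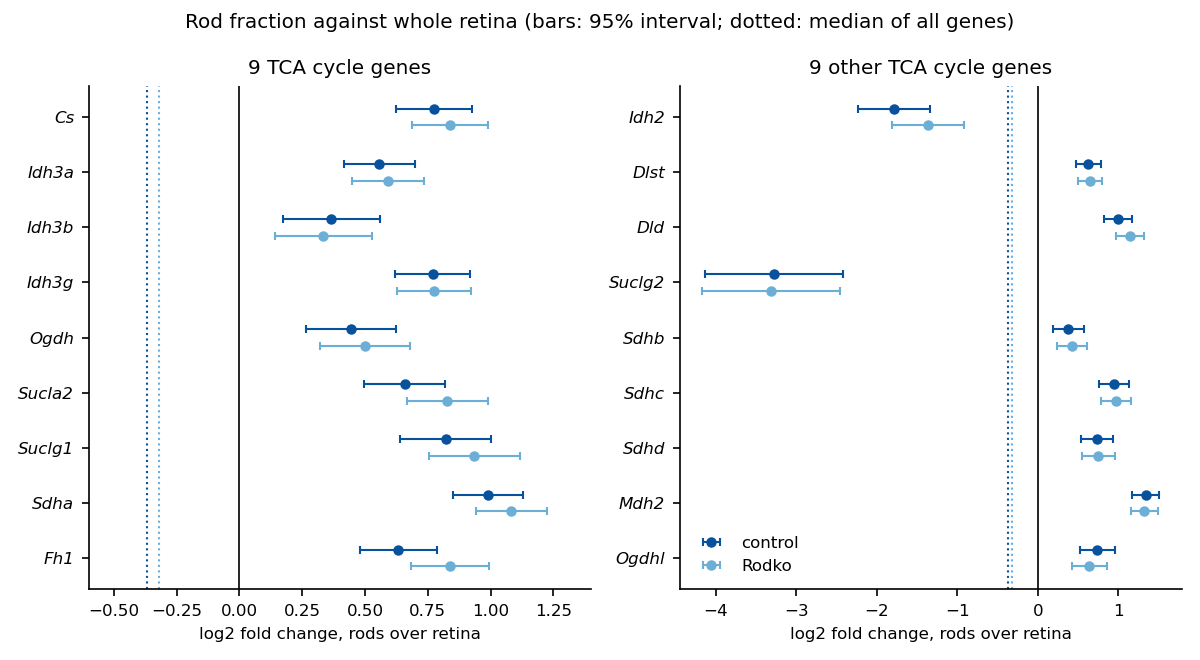
Log2 difference of rods over retina (x axis, TMM scale, own range in each panel) in control (dark) and Rodko (light) mice for the 9 members (left) and 9 other TCA cycle genes (right); bars are 95% intervals and dotted lines the median of all genes. All 9 members lie above 0, from Idh3b at 0.37 to Sdha at 0.99 in control mice, and Idh2 and Suclg2 lie far below.

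Neighbouring pathways gave a frame for these values in control mice, again on the TMM scale. Of 20 core genes of the respiratory chain, 19 were higher in rods and 0 lower, with a median of 0.89. Of 9 genes of lower glycolysis, 7 were higher and 2 lower (median 1.04), and of 10 genes of entry into the cycle, which include subunits of pyruvate dehydrogenase and pyruvate carboxylase, 5 were higher and 4 lower (median 0.22). Genes of mitochondrial structure and import were higher for 10 of 14 and lower for 1 (median 0.69), those of mitochondrial biogenesis regulators for 4 of 6 (0.65), cytosolic counterparts of cycle enzymes for 5 of 5 (0.86) and succinate dehydrogenase assembly factors for 2 of 4 (0.59). All 9 members stood below the lowest of the 15 rod markers in both genotypes, which was at 1.21 in control and 1.20 in Rodko mice. No gene of these lists was called between genotypes.

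The genes with the profile most like the mean of the members over the 12 libraries were, among 9197 genes with at least 100 mean reads in every group, Gnpat, Scamp1, Surf4, Bag5 and Plekhb2, with root mean square log2 differences of 0.038 to 0.044. The members themselves ranked between 9 (Idh3g) and 3482 (Idh3b) on the same measure, with Sucla2 at 15, Fh1 at 36 and Sdha at 2427. The profile was carried by the step between the fractions, which many genes share.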

How the data were processed

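Per the labels, retinas were taken after cycloheximide perfusion, polyA RNA was isolated before and after TRAP (translating ribosome affinity purification), and the submitters' processing notes name CASAVA 1.8.2, HISAT2, DESeq2, edgeR and build GRCm39, without roles; the counter, annotation and strand setting are not given in the sources used here. The deposited values were of the unit signal: reads per gene divided by a library size factor, which matched the median of ratios within each fraction. Reads were recovered exactly (100% of values whole within 0.1 read) and summed to 13458890 to 22790074 per library. Since each fraction had been scaled alone, rods and retina were compared on recovered reads scaled by TMM over 12 libraries (scaled reads); genotypes were compared on the deposited values. Main tests were limma 3.58.1 (trend) on log2(value + 1), over genes with a mean of at least 1 in a group, with Benjamini-Hochberg adjustment at 0.05; edgeR 4.0.16 (quasi-likelihood) and DESeq2 1.42.0 on recovered reads were alternatives, as were other scalings, filters, pseudocounts, left-out libraries and a replicate block. Scripts were tested on simulated data. Same-numbered rod and retina libraries of a genotype deviated together (r 0.163 to 0.397 across 12918 genes), but the labels do not state a pairing. The main fits and main ratio tests treated all libraries as independent. Their numbers were taken as pairs only in the replicate block and in the sign flips of the ratios. Ratios were tested by exact permutation. Named were all members and 9 other cycle genes (1 more gene of that list is not reported here), Pkm, called genes of the other lists, and the 5 genes of most similar profile. The members and lists were chosen with earlier results of these data known. Figures used matplotlib 3.10.9. No per-sample column was left out.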

Additional observations from a re-analysis of the deposited data

Results flagged for a closer look

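1 value met the rule for a sample far from the others, among 16 groups of 6 libraries examined (8 ratios in 2 fractions, genotypes together); chance flags about 1 group in 20. The log2 ratio of Idh3b to Idh3a in retina was -0.23 in control retina replicate 2, whereas the other 5 retina libraries lay between -0.06 and 0.02. That library had the lowest Idh3b value of the retina libraries as deposited, 2002.6, and the highest Idh3a value, 2347.9.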

How the results depend on the processing

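No member was called between genotypes, and no interaction was called for one, under any alternative run, and each count of members higher in rods stayed at 9 under the other tests, filters, pseudocount and RLE scaling and without each library in turn. Scaling by total reads left 4 members higher in control mice and 6 higher and 1 lower in Rodko mice; the deposited values, scaled within each fraction, left 4 higher and 1 lower, and 6 higher and 1 lower. Signs turned there for Idh3b (-0.18 in control and -0.25 in Rodko mice by total reads, -0.23 and -0.27 as deposited), Ogdh (-0.10 and -0.084, -0.15 and -0.10) and Idh3a (-0.038 and -0.011, as deposited only). With one genotype alone, 0 of 8 ratios passed, since the exact test of 3 libraries against 3 cannot; without each library in turn 7 or 8 did. Calls over all genes moved by more than 1.5 times as follows. In rods 4 genes were lower with limma, 7 with DESeq2, 18 in 1 fit of all 12 libraries, and 2 without control rods replicate 1, 2 or 3 or Rodko rods replicate 3; 4 were higher, in place of 0, without control rods replicate 3. In retina the 1 lower gene, Pkm, was lost with at least 10 reads in every library and without any of control retina replicates 1 and 3 and the 3 Rodko libraries, 2 were lower without control retina replicate 2, and 4 were higher without control retina replicate 3. Between fractions 2192 and 2201 genes were higher in control and Rodko mice by total reads and 1948 and 2079 as deposited (13132 and 12806 lower), and 3614 and 3586 were lower with at least 10 reads. The replicate block for rods against retina left 9 and 9 members higher and no interaction, and changed no call of a member; with it 6 of 8 ratios passed, all but Ogdh to Ogdhl and Sucla2 to Suclg1. Genotypes shared only a number (r -0.235 to 0.109): with the block 4 genes were higher and 4 lower in rods and 0 in retina. The cause of these shifts was not tested.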
